A study of Homo sapiens with 8 samples.

Results

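The 9 genes described here make, load and carry HLA class I molecules, and they were chosen by name out of the 17309 genes of the deposited RNA-seq table. They are the class I heavy chain genes HLA-B, HLA-C and HLA-E, the light chain gene B2M, the peptide transporter genes TAP1 and TAP2, the tapasin gene TAPBP, and the immunoproteasome subunit genes PSMB8 and PSMB9. RNA came from a pair of established human lines of colorectal cancer, SW480 and DLD-1, each infected with lentivirus that carried a control hairpin (shControl) or a hairpin against the RNA acetyltransferase gene NAT10 (shNAT10). The 4 groups were SW480 shControl, SW480 shNAT10, DLD-1 shControl and DLD-1 shNAT10, with 2 libraries in each and 8 in all. No time after infection, clone or interferon treatment is given in the labels, and which NAT10 hairpin was sequenced is not stated there. Line differences and NAT10 knockdown effects were taken from the same libraries.

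Nearly every nucleated cell cuts a sample of its own proteins into peptides in the proteasome and shows them at its surface to CD8 T cells. TAP1 and TAP2 form the pump that carries the peptides into the endoplasmic reticulum, where tapasin holds a heavy chain paired with β2-microglobulin beside the pump until a peptide fits. PSMB8 and PSMB9 take the place of constitutive catalytic subunits in the immunoproteasome, and most genes of the pathway are known to respond to interferon γ. Loss of these genes is a known route by which colorectal tumours escape T cells.

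All members but B2M lie on the short arm of chromosome 6, and TAP2, PSMB8, TAP1 and PSMB9 are neighbours there (GRCh38.p14, RefSeq). TAP2 spans chr6:32821831-32838739, PSMB8 chr6:32840717-32844679, TAP1 chr6:32845209-32853704 and PSMB9 chr6:32854192-32859851, and the last pair is transcribed in opposite directions from starts that face away from each other. HLA-E lies at chr6:30489509-30494194, HLA-C at chr6:31268749-31272092, HLA-B at chr6:31353875-31357179 and TAPBP at chr6:33299694-33314078. B2M lies at chr15:44711517-44718145. In shControl, HLA-B and B2M were called higher in SW480, against the other members, while TAP1 and PSMB9 differed most. The HLA-B difference was small, was not seen in shNAT10 and did not pass in every alternative fit. For these reasons the stretches before the starts of HLA-B and HLA-C, before B2M, and between TAP1 and PSMB9 are shown. They are RefSeq reference sequence of GRCh38.p14 and not read from these cells, they leave out every exon of a protein-coding gene in GENCODE 29, and they run 5′ to 3′ on the strand of the gene named. Capitals mark every match, on either strand, to a GAAA pair, which is GAAA repeated after any 2 bases as in interferon-stimulated response elements, and to its shorter form GAANNGAAA. They also mark the STAT element TTCNNNGAA, the CCAAT box, the GC box GGGCGG, the cyclic AMP response core TGACG and the NF-κB consensus. A match may overlap another.
HLA-B, chr6:31357189-31357429, minus strand: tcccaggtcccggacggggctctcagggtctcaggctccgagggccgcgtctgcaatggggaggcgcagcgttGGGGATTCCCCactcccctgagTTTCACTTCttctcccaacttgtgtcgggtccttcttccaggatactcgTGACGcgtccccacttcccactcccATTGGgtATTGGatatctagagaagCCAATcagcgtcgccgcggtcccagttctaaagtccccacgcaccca
HLA-C, chr6:31272131-31272342, minus strand: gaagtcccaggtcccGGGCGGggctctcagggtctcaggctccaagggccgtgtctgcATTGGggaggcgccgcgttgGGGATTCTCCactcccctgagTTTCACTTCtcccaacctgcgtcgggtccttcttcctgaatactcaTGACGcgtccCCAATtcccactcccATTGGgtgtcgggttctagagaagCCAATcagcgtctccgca
B2M, chr15:44711317-44711486, plus strand: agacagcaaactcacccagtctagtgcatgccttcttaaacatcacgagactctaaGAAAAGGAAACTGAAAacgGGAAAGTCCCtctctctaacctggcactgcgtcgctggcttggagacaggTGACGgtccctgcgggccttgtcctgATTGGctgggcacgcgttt
TAP1 and PSMB9, chr6:32853979-32854147, plus strand, PSMB9 to the right: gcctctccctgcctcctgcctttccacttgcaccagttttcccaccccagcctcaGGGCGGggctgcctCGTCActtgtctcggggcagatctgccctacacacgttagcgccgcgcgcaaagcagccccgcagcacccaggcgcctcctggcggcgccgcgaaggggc

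The 250 bases before the starts of HLA-B and HLA-C were 89% identical over 254 aligned positions. In each, an NF-κB match was followed by GAANNGAAA on the opposite strand, then by TGACG and by CCAAT on either strand. The window of B2M held 2 overlapping GAAA pairs followed by an NF-κB match, and the window before the upstream TAP1 start and that before TAPBP also held 2 GAAA pairs each. The TAP1 pairs lie outside the stretch printed between TAP1 and PSMB9, which held 1 GGGCGG and 1 TGACG match. TAP2 held 1 GAAA pair and 1 GAANNGAAA match, whereas PSMB9 and both PSMB8 windows held none of either. TTCNNNGAA had 1 match in the window before the downstream TAP1 start. It had 1 in the PSMB8 window before position 32844047 and none in the other windows of members. RefSeq windows were found for 8 of the 9 members, and HLA-E had no entry. Matches were counted in the 250 bases before each annotated start, and TAP1 and PSMB8 had 2 such windows each. Of 27050 windows of the same length, 1 for each gene with identical windows counted once, 3.07% held a GAAA pair, 6.77% GAANNGAAA, 6.78% TTCNNNGAA, 33.1% CCAAT, 42.3% GGGCGG, 21.6% TGACG and 9.57% the NF-κB consensus. These are matches of letters, and binding of a factor was not measured.

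The libraries held 15147805 to 17271336 assigned counts, of which the 9 members took 0.183% to 0.352%. NAT10 was at 121 to 122 CPM (counts scaled to the TMM-normalised library size) in the 4 shControl libraries, at 23.6 and 27.9 CPM in SW480 shNAT10 and at 59 and 54.4 CPM in DLD-1 shNAT10. The first principal component took 95.6% of the variance and separated the lines. The replicates of SW480 shNAT10 differed more from each other than those of the other groups, with a chi-square of 10.8 per degree of freedom against 3.46 to 4.8. The 9 epithelial markers summed to 3169 to 3928 CPM in SW480 and 7500 to 8094 CPM in DLD-1, with KRT8 and KRT18 the largest parts. KRT20 averaged 0.0879 and 0.146 CPM in the SW480 groups and 19.1 and 19 CPM in the DLD-1 groups. VIL1 and LGALS4 went the other way, at 14.5 and 2.08 CPM in SW480 shControl and 5.42 and 1 CPM in DLD-1 shControl. Leukocyte markers (6 of 9 listed in the table) summed to 1.65 to 3.81 CPM, and the 7 fibroblast and endothelial markers to 2.1 to 6.27 CPM.

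Levels of different members were compared in FPKM, which is per transcript length. In SW480 shControl the highest means were those of HLA-C at 354, B2M at 339 and HLA-B at 339 FPKM, whose replicate ranges overlapped. HLA-E followed at 86.6 and PSMB8 at 66.1 FPKM, and TAP2, TAP1 and TAPBP stood at 26.6, 25.3 and 25 FPKM with ranges that overlapped between neighbours. PSMB9 was lowest at 21.9 FPKM. The order in DLD-1 shControl was HLA-C (593 FPKM), HLA-B (299), B2M (267), HLA-E (192), PSMB8 (173), TAP1 (139), PSMB9 (123), TAPBP (71.7) and TAP2 (69.7), and the last pair overlapped. TAP1 and PSMB9 stood above TAP2 and TAPBP in DLD-1 and beside or below them in SW480.

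**Figure D1:**
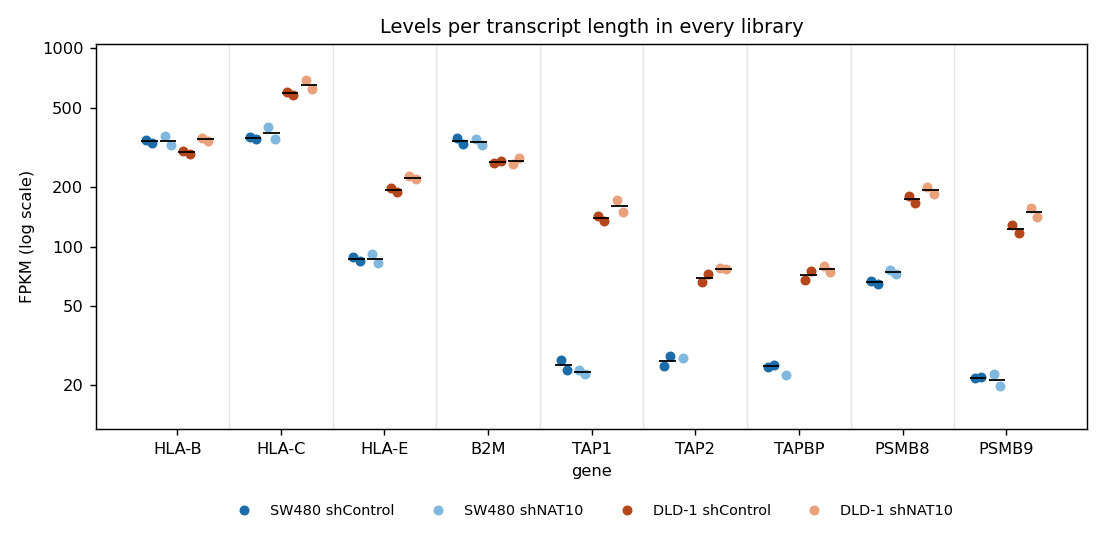
FPKM (log axis) of the 9 members in each library, by group, with points for libraries and black lines for the means of 2 libraries. HLA-C, HLA-B and B2M lie together between 339 and 354 FPKM on average in SW480 shControl, and TAP2 and TAPBP show a single SW480 shNAT10 library because the deposited FPKM values of the other are incomplete.

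The line comparison asked which colorectal line holds more of each mRNA without the knockdown. In the shControl libraries 7 of the 9 members were higher in DLD-1 and 2, B2M and HLA-B, were higher in SW480 at an adjusted p under 0.05 (edgeR's quasi-likelihood test, Benjamini-Hochberg adjustment over 13619 tested genes). Of all tested genes, 35.6% were called higher in DLD-1, 38.1% higher in SW480 and 73.8% in either direction, so a call by itself is common between these lines. The median log2 fold change of SW480 over DLD-1 was −1.32 over the members and 0.0113 over all tested genes. The libraries of the 2 shControl groups did not overlap in 9 of 9 members and in 87.7% of all tested genes. Transcription, mRNA stability and gene copy number were not measured separately, and in bulk RNA fewer cells that express a gene and less RNA per cell cannot be told apart.

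**Figure D2:**
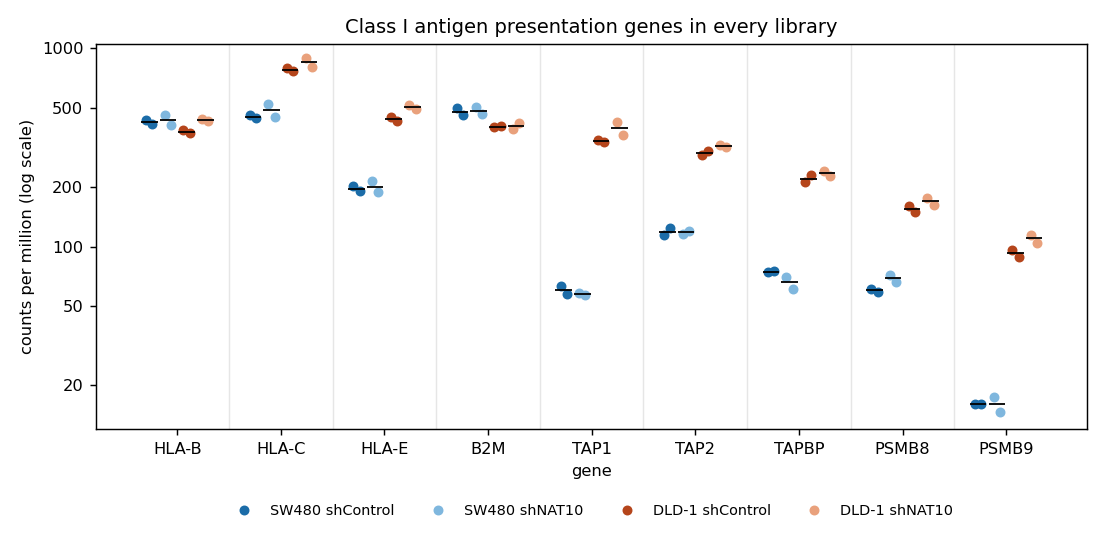
CPM (log axis) of the 9 members in each of the 8 libraries, with points for libraries and black lines for the means of 2 libraries. TAP1 and PSMB9 show the widest gap between the blue SW480 and the red DLD-1 points, and HLA-B and B2M the narrowest.

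The heavy chain genes did not move together. HLA-B, which encodes a classical heavy chain, was at 433 and 415 CPM in the SW480 shControl libraries, 462 and 411 in SW480 shNAT10, 387 and 372 in DLD-1 shControl, and 442 and 428 CPM in DLD-1 shNAT10. Its shControl libraries were higher in SW480 by a log2 fold change of only 0.16 (SE 0.0689, adjusted p = 0.047, edgeR), and its shNAT10 libraries overlapped between the lines. That call was lost when any of the shControl libraries (adjusted p = 0.077 to 0.22) or either DLD-1 shNAT10 library (adjusted p = 0.07) was left out. HLA-C, the other classical heavy chain measured here, was at 460 and 445 CPM in the SW480 shControl libraries, 525 and 448 in SW480 shNAT10, 791 and 764 in DLD-1 shControl, and 892 and 807 CPM in DLD-1 shNAT10. All DLD-1 libraries lay above all SW480 libraries, with a 1.72-fold higher level in DLD-1 shControl (log2 −0.78, SE 0.0798, adjusted p = 5.3e-07, edgeR). HLA-E, a non-classical heavy chain known as the ligand of the NKG2A receptor of NK and T cells, was at 201 and 190 CPM in the SW480 shControl libraries, 213 and 188 in SW480 shNAT10, 452 and 428 in DLD-1 shControl, and 517 and 496 CPM in DLD-1 shNAT10. It was 2.25-fold higher in DLD-1 shControl (log2 −1.17, SE 0.0725, adjusted p = 2.1e-09, edgeR), again with no overlap between the lines.

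B2M, the light chain that every class I heavy chain pairs with, was at 498 and 461 CPM in the SW480 shControl libraries, 504 and 465 in SW480 shNAT10, 399 and 406 in DLD-1 shControl, and 391 and 419 CPM in DLD-1 shNAT10. It was 1.19-fold higher in SW480 shControl (log2 0.25, SE 0.0687, adjusted p = 0.0042, edgeR), and without SW480 shControl replicate 1 the log2 fold change was 0.20 at an adjusted p of 0.066 (edgeR). With curated (NM) transcripts alone it was 0.43 (adjusted p = 0.0014, edgeR). Ratios of heavy to light chain were taken from the FPKM values as deposited, with no test. The FPKM of HLA-C was 1.02 and 1.07 times that of B2M in SW480 shControl and 2.29 and 2.15 times in DLD-1 shControl. For HLA-E the ratio to B2M was 0.252 and 0.258 against 0.748 and 0.692, and for HLA-B it was 0.983 and 1.02 against 1.15 and 1.08. The FPKM ratio of HLA-C to HLA-B was 1.04 and 1.05 in SW480 shControl and 1.98 and 1.99 in DLD-1 shControl.

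HLA genes are near-identical in sequence and differ between people, and their reads were assigned to reference transcripts by the submitters. HLA-B had 1 transcript in the table and HLA-C had 2, and the share of HLA-C counts given to NM_001243042 was 46.5% to 47.7% in SW480 shControl against 78.8% to 79.5% in DLD-1 shControl. How well the HLA sequences of each line match those references was not tested. A difference in mapping and a difference in mRNA level therefore cannot be told apart for HLA-B, HLA-C and HLA-E. The same holds for the other HLA genes named below, HLA-F and HLA-DQB1 among them. B2M had 2 transcripts in the table, of which XM_005254549 took 3.2% to 3.63% in SW480 shControl and 13.5% to 14.9% in DLD-1 shControl.

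The transporter genes were higher in DLD-1 in every library. TAP1, whose product forms the pump together with that of TAP2, was at 63.4 and 58 CPM in the SW480 shControl libraries, 58.7 and 57 in SW480 shNAT10, 345 and 336 in DLD-1 shControl, and 424 and 367 CPM in DLD-1 shNAT10. It was 5.61-fold higher in DLD-1 shControl (log2 −2.49, SE 0.0804, adjusted p = 1.3e-12, edgeR), and 12.5% of all tested genes had a line difference at least as large in either direction. TAP2 was at 114 and 124 CPM in the SW480 shControl libraries, 116 and 120 in SW480 shNAT10, 288 and 304 in DLD-1 shControl, and 326 and 319 CPM in DLD-1 shNAT10. It was 2.49-fold higher in DLD-1 shControl (log2 −1.32, SE 0.0666, adjusted p = 2.0e-10, edgeR), less than its partner. The FPKM ratio of TAP1 to TAP2 was 1.06 and 0.851 in SW480 shControl and 2.15 and 1.85 in DLD-1 shControl. These ratios were not tested, and they depend on how reads were divided between transcripts. NM_001290043 took 63.9% to 64.2% of TAP2 counts in SW480 shControl and 39.6% to 41.8% in DLD-1 shControl.

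TAPBP, which encodes tapasin, the bridge between the pump and the empty heavy chain, was at 74.3 and 75.2 CPM in the SW480 shControl libraries, 70.7 and 61.5 in SW480 shNAT10, 211 and 229 in DLD-1 shControl, and 240 and 227 CPM in DLD-1 shNAT10. It was 2.95-fold higher in DLD-1 shControl (log2 −1.56, SE 0.0775, adjusted p = 1.6e-10, edgeR). Its locus overlaps that of RGL2, and whether the libraries kept the strand is not given in the sources used here. RGL2 was at 31.5 CPM on average in SW480 shControl and 38.1 CPM in DLD-1 shControl (log2 −0.28, adjusted p = 0.021, edgeR), a far smaller difference. TAP1 and PSMB8 overlap PSMB8-AS1, a long non-coding gene that the table does not list.

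Both immunoproteasome subunits were higher in DLD-1. PSMB9, which takes the place of PSMB6 in the assembled particle, was at 16.1 and 16.2 CPM in the SW480 shControl libraries, 17.4 and 14.7 in SW480 shNAT10, 96.4 and 88.4 in DLD-1 shControl, and 115 and 104 CPM in DLD-1 shNAT10. It was 5.74-fold higher in DLD-1 shControl (log2 −2.52, SE 0.0958, adjusted p = 7.7e-12, edgeR), the largest difference among the members and close to that of TAP1 across the intergenic stretch shown above. PSMB6 went the other way, 1.3-fold higher in SW480 (log2 0.38, adjusted p = 8.6e-04, edgeR). The FPKM of PSMB9 was 0.0674 and 0.0788 times that of PSMB6 in SW480 shControl and 0.562 and 0.53 times in DLD-1 shControl.

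PSMB8, the counterpart of PSMB5, was at 61.4 and 59.4 CPM in the SW480 shControl libraries, 72.3 and 66.3 in SW480 shNAT10, 161 and 149 in DLD-1 shControl, and 175 and 163 CPM in DLD-1 shNAT10. It was 2.57-fold higher in DLD-1 shControl (log2 −1.36, SE 0.0757, adjusted p = 5.9e-10, edgeR), while PSMB5 was 1.11-fold higher in the same direction (log2 −0.16, adjusted p = 0.039, edgeR). The FPKM ratio of PSMB8 to PSMB5 was 0.298 and 0.308 in SW480 shControl and 0.753 and 0.696 in DLD-1 shControl. PSMB8 has 2 transcripts that start 656 bases apart, NM_148919 at position 32844047 and NM_004159 at 32844703 of chromosome 6 (GENCODE 29, minus strand). The downstream start, NM_148919, took 58.8% to 60.1% of PSMB8 counts in SW480 shControl and 76.7% to 78.6% in DLD-1 shControl. The estimated counts of NM_004159 were 419 and 418 in SW480 shControl and 587 and 585 in DLD-1 shControl. Those of NM_148919 were 629 and 596 against 2160 and 1925. These shares are estimates from reads divided between transcripts, and no test was run on them.

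Between the shNAT10 groups, fitted in the same model with a shared estimate of the spread, 8 of the 9 members differed between the lines at an adjusted p under 0.05 (edgeR), 7 higher in DLD-1 and B2M higher in SW480. Here 36.3% of all tested genes were called higher in DLD-1, 38.2% higher in SW480 and 74.5% in either direction. The shNAT10 groups did not overlap between the lines in 8 of 9 members and in 85.1% of all tested genes. The levels were 6.85-fold higher in DLD-1 for TAP1 (log2 −2.78), 6.82-fold for PSMB9 (log2 −2.77), 3.53-fold for TAPBP (log2 −1.82) and 2.74-fold for TAP2 (log2 −1.45). HLA-E was 2.53-fold, PSMB8 2.45-fold and HLA-C 1.74-fold higher in DLD-1, and B2M was 1.2-fold higher in SW480 (log2 0.26, adjusted p = 0.0032, edgeR). B2M no longer passed without DLD-1 shNAT10 replicate 1 (log2 0.21, adjusted p = 0.05, edgeR). HLA-B had a fitted log2 fold change of 0.0046 between the lines (95% interval −0.14 to 0.15, adjusted p = 0.95, edgeR).

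**Figure D3:**
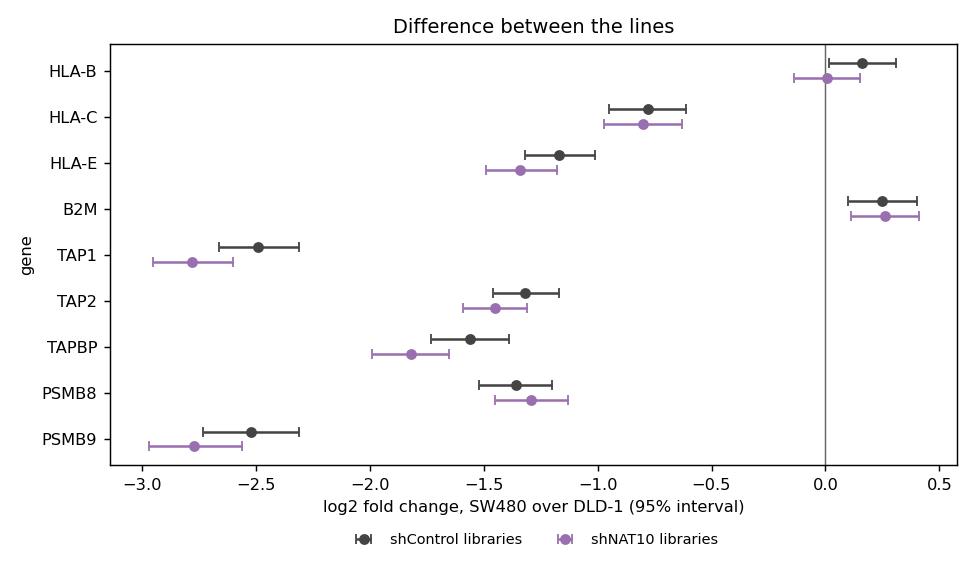
Log2 fold change of SW480 over DLD-1 for each member (x axis, bars are 95% intervals of the edgeR fit) in the shControl and the shNAT10 libraries, 2 libraries per group. TAP1 and PSMB9 lie near −2.5 to −2.8 in both, and HLA-B and B2M lie at or above 0.

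The knockdown comparison asked whether the members changed with less NAT10 mRNA. In SW480, 0 of 9 members passed an adjusted p under 0.05 (edgeR), against 1.68% of all tested genes, and 0 of 9 passed with DESeq2. An unadjusted p under 0.05 was reached by 2 of 9 members and 19.3% of all tested genes. PSMB8 was at 72.3 and 66.3 CPM against 61.4 and 59.4 (log2 0.20, 95% interval 0.033 to 0.36, adjusted p = 0.19, edgeR). TAPBP was at 70.7 and 61.5 CPM against 74.3 and 75.2 (log2 −0.18, 95% interval −0.35 to −0.0057, adjusted p = 0.25, edgeR). In these 2 of 9 members the groups did not overlap, against 47.9% of all tested genes. The other members had log2 fold changes from −0.07 for TAP1 to 0.11 for HLA-C, with adjusted p from 0.49 to 1 (edgeR), and their groups overlapped. Without SW480 shNAT10 replicate 2, PSMB8 passed at a log2 fold change of 0.26 (adjusted p = 0.047, edgeR), and 2162 genes were called in place of 229.

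In DLD-1, 0 of 9 members passed an adjusted p under 0.05 (edgeR), against 0.0147% of all tested genes, and 0 of 9 passed with DESeq2. The fitted log2 fold change lay above 0 for 9 of 9 members and 49.5% of all tested genes, and its median was 0.129 over the members and 0 over all genes. The shNAT10 libraries lay above the shControl libraries without overlap in 7 of 9 members, against 17.7% of all tested genes in that direction and 36% in either direction. The members were read in the same libraries, so their directions are not independent observations. An unadjusted p under 0.05 was reached by 4 of 9 members and 5.96% of all tested genes. They were PSMB9 at 115 and 104 CPM against 96.4 and 88.4 (log2 0.25), TAP1 at 424 and 367 against 345 and 336 (log2 0.22), HLA-B at 442 and 428 against 387 and 372 (log2 0.20) and HLA-E at 517 and 496 against 452 and 428 (log2 0.20). The adjusted p of these 4 genes lay between 0.66 and 0.71 (edgeR). B2M, at 391 and 419 CPM against 399 and 406, and TAPBP, at 240 and 227 against 211 and 229, overlapped between the groups. B2M had a log2 fold change of 0.007 (95% interval −0.14 to 0.15).

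Under the limits that the study used for RNA-seq, a fold change above 1.2 or below 0.83 with an unadjusted p under 0.05, 0 of 9 members passed in either line. Those limits took in 9.08% of all tested genes in SW480 and 2.68% in DLD-1. The intervals bound the knockdown effects at −0.35 to 0.36 on the log2 scale in SW480 and −0.14 to 0.42 in DLD-1 over the members.

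**Figure D4:**
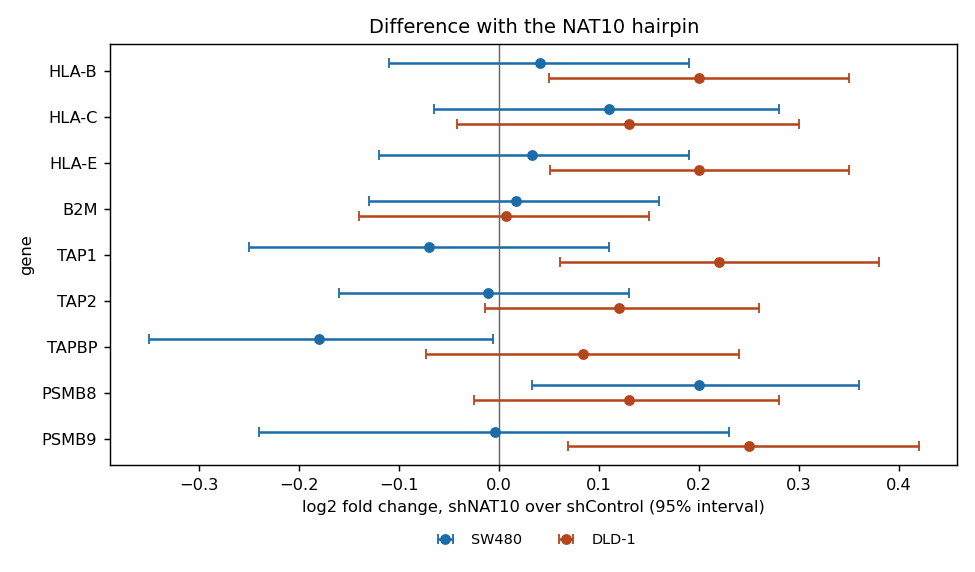
Log2 fold change of shNAT10 over shControl for each member (x axis, bars are 95% intervals of the edgeR fit) in SW480 and DLD-1, 2 libraries per group. All 9 DLD-1 points lie at or above 0, up to 0.25, and the SW480 points lie on both sides of 0, from −0.18 to 0.20.

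The difference of the knockdown effects between the lines was tested as an interaction. It reached an adjusted p under 0.05 in 0 of 9 members and 0.00734% of all tested genes (edgeR), and in 0 of 9 members with DESeq2. An unadjusted p under 0.05 was reached by 2 members, TAP1 (SW480 effect minus DLD-1 effect −0.29, 95% interval −0.52 to −0.052, adjusted p = 0.49, edgeR) and TAPBP (−0.26, 95% interval −0.49 to −0.028, adjusted p = 0.50, edgeR), and by 9.38% of all tested genes. At the fold change and unadjusted p limits of the study, 7.86% of all genes passed for this difference, TAP1 among them.

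The other genes of the pathway were read from lists of partners and regulators, and none of their tested genes passed an adjusted p under 0.05 in either knockdown comparison (edgeR). Calls were rare over all tested genes too, at 1.68% in SW480 and 0.0147% in DLD-1. Among the immunoproteasome partners, 3 of 6 were higher in DLD-1 shControl and 1 was higher in SW480. Over all tested genes, 35.6% were called higher in DLD-1 shControl and 38.1% higher in SW480. PSME2 and PSME1, which form the PA28 activator cap, were 2.95-fold and 2.34-fold higher in DLD-1 (log2 −1.56 and −1.23, adjusted p = 5.8e-11 and 6.4e-10, edgeR), and PSMB10, a further inducible catalytic subunit, was 2.04-fold higher (log2 −1.03, adjusted p = 7.1e-06, edgeR). POMP, a chaperone of proteasome assembly, was 1.91-fold higher in SW480 (log2 0.93, adjusted p = 1.9e-08, edgeR). Of the 3 constitutive catalytic subunits, 1 was higher in each line, and PSMB7 had a log2 fold change of 0.069 (adjusted p = 0.37, edgeR).

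Of 10 loading and trimming partners in the endoplasmic reticulum, 5 were higher in DLD-1 shControl and 3 in SW480. All tested genes gave 35.6% and 38.1%. ERAP2, an aminopeptidase that trims peptides after the pump, was 4.63-fold higher in DLD-1 (log2 −2.21, adjusted p = 6.8e-12, edgeR), at 178 and 183 CPM against 37.5 and 40.4. Its relative ERAP1 was at 63.5 and 66.5 CPM against 66.1 and 64.9 (log2 0.011, adjusted p = 0.92, edgeR). TAPBPL, the tapasin-like peptide editor, was 2.5-fold higher in DLD-1, LNPEP, which encodes an aminopeptidase of endosomes, 1.68-fold and the chaperone gene CALR 1.65-fold (adjusted p = 3.1e-08, 2.5e-07 and 1.5e-07, edgeR).

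Of 9 other class I and class I-like genes, 4 were higher in DLD-1 shControl and 3 in SW480, against 35.6% and 38.1% of all tested genes. HLA-F, a non-classical heavy chain, was 3.26-fold higher in DLD-1 (log2 −1.70, adjusted p = 2.9e-10, edgeR), and HFE, a class I-like protein of iron regulation, was 10.6-fold higher (log2 −3.40, adjusted p = 9.2e-11, edgeR). CD1D, which presents lipids, had 22 and 27 counts in SW480 shControl and 0 in both DLD-1 shControl libraries, at least 16.3-fold higher against a floor of 3 counts over the group. FCGRT, the heavy chain of the neonatal Fc receptor, which also pairs with β2-microglobulin, had 177 and 171 counts against 0 and 2 (ratio 174, 95% counting interval 47.7 to 1440). The intervals and the floor cover counting error only.

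Of 12 genes for trafficking and turnover of class I molecules, 8 were higher in SW480 shControl and 3 in DLD-1. All tested genes gave 38.1% and 35.6%. Differences in this list were modest apart from MARCHF4, a ubiquitin ligase gene with 32 and 30 counts against 2 and 2 (ratio 15.5, 95% counting interval 5.75 to 58.6). MARCHF9, a related ligase gene, was 1.68-fold higher in DLD-1, and TMED10 and RNF5 were 1.62-fold and 1.61-fold higher in SW480 (adjusted p = 1.3e-04, 9.6e-08 and 1.1e-05, edgeR). Only 2 of 9 class II genes had enough counts to be tested. HLA-DQB1 had 155 and 222 counts in SW480 shControl against 0 and 2 in DLD-1 shControl (ratio 188, 95% counting interval 51.7 to 1560). For this gene too, mapping and mRNA level cannot be told apart. HLA-DRA, HLA-DQA1 and CD74 had at most 1, 1 and 7 counts in any library.

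Of 28 transcriptional regulators of class I genes and components of interferon signalling, 14 were higher in DLD-1 shControl and 8 in SW480. All tested genes gave 35.6% and 38.1%. NLRC5, the transactivator of class I genes, was at 26.3 and 24.2 CPM in the SW480 shControl libraries, 20.9 and 22 in SW480 shNAT10, 122 and 129 in DLD-1 shControl, and 157 and 154 CPM in DLD-1 shNAT10. It was 4.97-fold higher in DLD-1 shControl (log2 −2.31, SE 0.0782, adjusted p = 2.1e-12, edgeR). IRF9 and STAT2, which act in the response to type I interferon, were 8.94-fold and 6.62-fold higher in DLD-1 (log2 −3.16 and −2.73, adjusted p = 1.5e-12 and 1.6e-13, edgeR). Of the receptor genes, IFNGR1 alone was higher in DLD-1, by 2.56-fold (adjusted p = 3.8e-10, edgeR). IFNGR2, IFNAR2 and IFNAR1 were 2.18-fold, 1.61-fold and 1.34-fold higher in SW480 (adjusted p = 7.4e-09, 5.5e-06 and 1.0e-04, edgeR). IRF1 was 1.35-fold higher in DLD-1 (adjusted p = 9.7e-05, edgeR). The receptor genes and IRF1 were named here after their values were seen. With the NAT10 hairpin in DLD-1, NLRC5 had the lowest p of this list (log2 0.31, adjusted p = 0.21, edgeR), and its SW480 effect minus its DLD-1 effect was −0.54 on the log2 scale, which missed the threshold (adjusted p = 0.17, edgeR).

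**Figure D5:**
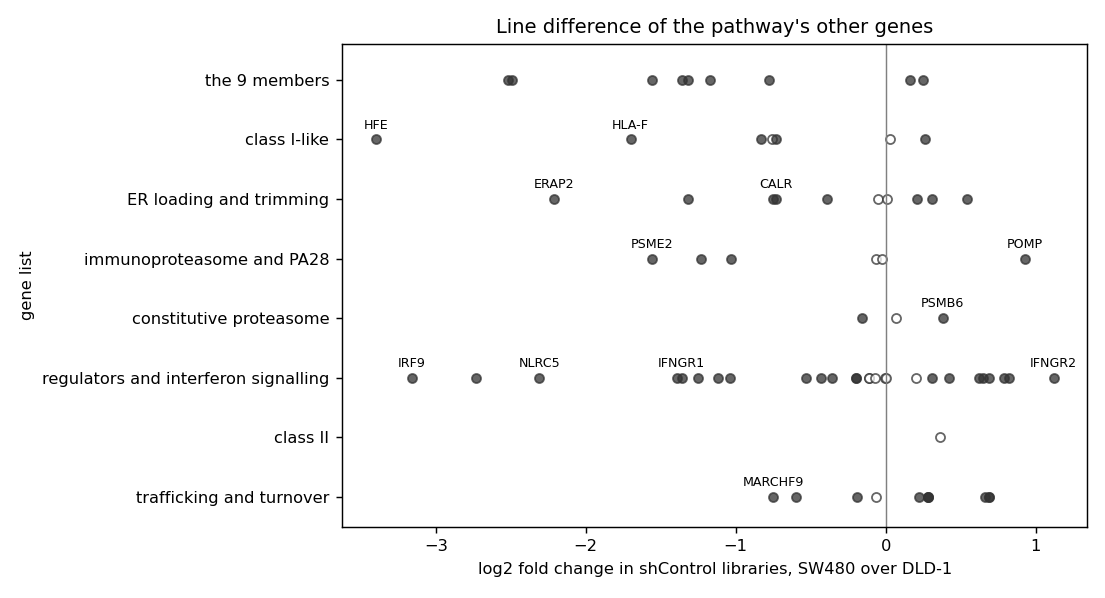
Log2 fold change of SW480 over DLD-1 in the shControl libraries (x axis) for the members and tested genes of each pathway list (rows). Filled points passed an adjusted p under 0.05, and CD1D, FCGRT, HLA-DQB1 and MARCHF4 are not drawn because their DLD-1 counts are at or near 0, and 1 regulator is not reported. IRF9 (−3.16) and NLRC5 (−2.31) lie on the DLD-1 side with TAP1 and PSMB9.

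In the shNAT10 libraries the same contrast gave 15 of 28 regulators higher in DLD-1 and 9 higher in SW480, with IRF9 at 9.61-fold, STAT2 at 8.5-fold and NLRC5 at 7.24-fold higher in DLD-1 (log2 −3.26, −3.09 and −2.86, edgeR). For the immunoproteasome partners it gave 4 of 6 higher in DLD-1 and 1 in SW480, and for the loading and trimming partners 7 of 10 and 2. Over all tested genes it gave 36.3% higher in DLD-1 and 38.2% higher in SW480. PSMB6 was 1.61-fold and PSMB7 1.18-fold higher in SW480 (adjusted p = 3.4e-06 and 0.0045, edgeR).

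Within each line, the list genes with the lowest p for the NAT10 hairpin missed the threshold. In SW480 they included STAT2 (log2 −0.30, adjusted p = 0.074), CREB1, a factor that binds TGACG-type elements (log2 −0.29, adjusted p = 0.086), LNPEP (log2 −0.27, adjusted p = 0.085) and CALR (log2 0.21, adjusted p = 0.12), all by edgeR. PSMB6 and PSMB5, the constitutive counterparts of PSMB9 and PSMB8, had log2 fold changes of 0.26 and 0.17 there (adjusted p = 0.13 and 0.18, edgeR). In DLD-1 they included IFNGR2 (log2 −0.22, adjusted p = 0.78), HLA-F (log2 0.18, adjusted p = 0.83) and CALR (log2 0.16, adjusted p = 0.82), all by edgeR. For the difference of the effects, ERAP1 had −0.32 (adjusted p = 0.49, edgeR).

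The epithelial markers moved with the line difference as well, with 7 of 9 higher in DLD-1 shControl and 2 higher in SW480 (edgeR). Over all tested genes the shares were 35.6% and 38.1%, and the part of these markers in the result was not tested. Among 102 tested non-member genes between HLA-F and TAPBP on chromosome 6 (chr6:29723434-33314078), a set chosen after values were seen, 49% were higher in DLD-1 shControl and 19.6% higher in SW480 at an adjusted p under 0.05 (edgeR). All tested genes gave 35.6% and 38.1%, in the same order. The tested genes nearest to the TAP and PSMB cluster, HLA-DOB and HLA-DMA, missed the threshold in shControl (adjusted p = 0.082 and 0.14, edgeR) and had log2 fold changes of −1.37 and 0.63 in shNAT10 (adjusted p = 0.014 and 0.015, edgeR). The 5 genes outside the list whose log2 CPM over the 8 libraries was most like the members' mean profile were PRKD2, PRR3, MVP, QSOX1 and TRAFD1, with root mean square differences of 0.0499 to 0.0597. The members themselves lay 0.0295 (HLA-E) to 0.763 (B2M) from that mean. HLA-B, TAP1 and PSMB9 were at 0.673, 0.685 and 0.689, so the mean profile does not stand for each member. PRKD2 was at 55.9 CPM in SW480 shControl and 126 CPM in DLD-1 shControl, and the log2 fold changes of the 5 genes between the shControl groups ran from −1.29 to −1.17.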

How the data were processed

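Poly(A) RNA of 8 libraries was sequenced as single-end reads on a BGISEQ-500. The authors deposited estimated counts per RefSeq transcript and, in a file for each library, FPKM values. The submitters' processing notes name HISAT2 2.0.4, Bowtie2 2.2.5, RSEM 1.2.12 and hg38 without saying which gave which value, and library strandedness is not given in the sources used here. The deposited FPKM values of SW480 shNAT10 replicate 2 lacked 14655 transcripts, so TAP2 and TAPBP had none there and that library was dropped from their limma fit.

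Estimated counts of 78953 transcripts were summed to 17309 genes and rounded, and 99.3% of genes matched a RefSeq symbol. One edgeR 4.0.16 quasi-likelihood model with TMM scaling held the 4 groups, after filterByExpr (minimum count 10, minimum total 15), and p-values were adjusted by the Benjamini-Hochberg method over 13619 genes with a threshold of 0.05. The labels call replicates biological but do not name separate cultures, so p-values measure the spread between these samples. SE is the log2 fold change over the root of F, and intervals are 95%. The fit was tested on simulated data for the knockdown in SW480 alone, with the same spread in every group. That test does not cover the line differences or the wider spread of the SW480 shNAT10 replicates.

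The members and lists were chosen with earlier results of these data known. Each member is named with its values. Of each list, up to 4 called genes with the largest change, or the 2 with the lowest p where none was called, could be named per comparison, and of these the text names a part and gives the rest by count. Some list genes stay in the counts but are not reported here by value. The 5 genes most like the members' mean profile were taken by root mean square difference. Alternatives were upper-quartile scaling, DESeq2 1.42.0, filters of 1 count in all and of 10 counts in every library, NM transcripts only, a replicate block, groups compared alone, limma 3.58.1 on log2(FPKM + 1), the fold and p limits of the study, and each library left out. R 4.3.3 and Python 3.11.15 were used. The deposited columns of mean counts per group were not used.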

Additional observations from a re-analysis of the deposited data

How the results depend on the processing

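HLA-C, HLA-E, TAP1, TAP2, TAPBP, PSMB8 and PSMB9 were higher in DLD-1 past the threshold in both line comparisons under every alternative run, except that the fold limits of the study use an unadjusted p. With 1 library left out, the number of members called was 7 to 9 in shControl and 7 to 8 in shNAT10 for the line difference, 0 to 1 for the knockdown in SW480 and 0 for that in DLD-1 and for the difference of effects. HLA-B in shControl missed the threshold with the filter of 1 count (log2 0.16, adjusted p = 0.065, edgeR) and with NM transcripts only (log2 0.17, adjusted p = 0.053, edgeR). In SW480, the replicate block gave 1 member called, PSMB8 (log2 0.20, adjusted p = 0.041, edgeR), and the limits of the study gave 1 for the difference of effects, TAP1. The causes were not tested.

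The labels do not say what libraries with the same replicate number share. Differences between replicates 1 and 2 correlated across genes at 0.302 between the SW480 groups, 0.176 between the DLD-1 groups, 0.157 between the shControl groups, 0.262 between the shNAT10 groups, 0.325 between SW480 shNAT10 and DLD-1 shControl, and −0.0256 between SW480 shControl and DLD-1 shNAT10. With the block, calls over all genes went from 229 to 1654 in SW480, from 2 to 65 in DLD-1 and from 1 to 209 for the difference of effects, and no other member changed call.

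Calls over all genes for the knockdown in SW480 were 22 with NM transcripts only, 29 with groups alone, 41 with the filter of 1 count, 49 with limma, 304 with DESeq2, 1237 at the limits of the study and 17 to 2162 with 1 library left out. In DLD-1 they were 1 with the filter of 1 count and with limma, 3 with NM transcripts only, 19 with DESeq2, 38 with groups alone, 365 at the limits of the study and 1 to 29 with 1 library left out. For the difference of effects they were 0 with NM transcripts only and limma, 29 with DESeq2, 1070 at the limits of the study and 0 to 346 with 1 library left out.

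Changes of sign were seen only in results that were not called. HLA-B between the shNAT10 groups was −0.022 with limma and −0.077 to 0.085 with 1 library left out. In SW480, B2M was −0.0088 with limma, TAP2 was 0.00069 with groups alone and 0.052 with limma, and PSMB9 was 0.0081 with upper-quartile scaling, 0.0053 with DESeq2 and 0.0091 with groups alone. In DLD-1, B2M was −0.0059 with NM transcripts only, and its difference of effects was −0.025 with limma. With 1 library left out, the SW480 effects ran from −0.037 to 0.12 for HLA-B, −0.0043 to 0.22 for HLA-C, −0.053 to 0.12 for HLA-E, −0.036 to 0.075 for B2M, −0.075 to 0.055 for TAP2 and −0.12 to 0.11 for PSMB9. The DLD-1 effect of B2M ran from −0.044 to 0.056, and the differences of effects from −0.14 to 0.09 for HLA-C and −0.044 to 0.068 for B2M. With 2 libraries in a group, the lone library left in such a fit was assumed to vary like the other groups.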
